A study of Mus musculus with 2 samples.

Results

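The cells described here, named cycle-exited, Myog-positive early myocytes, come from mouse induced myogenic progenitor cell (iMPC) cultures. There were 329 such cells among the 5782 filtered cells of a MyoD-KO clone (KO) and 305 among the 7318 filtered cells of a MyoD-WT clone (WT), 634 of the 15861 deposited barcodes in all. They were chosen by measured values of the cells themselves. A filtered cell had at least 1000 detected genes and at most 15% mitochondrial UMIs (unique molecular identifiers, the counted molecules). An early myocyte had at most 1 Pax7 UMI, at least 2 Myog UMIs per 10000, under 1% of its UMIs in the 5 contractile genes Acta1, Actc1, Myh3, Mylpf and Myl1, and under 0.5 Mki67 and Top2a UMIs per 10000. Cycle-exited is thus a name for the Mki67 and Top2a limit, and exit from the cycle was not tested. Of the early myocytes, 202 of 329 in KO and 204 of 305 in WT had no Mki67 or Top2a UMI. Early myocytes made up 5.69% of filtered KO cells (exact 95% interval 5.11 to 6.32) and 4.17% of filtered WT cells (3.72 to 4.65), a difference of 1.52 percentage points (0.765 to 2.29). All intervals here cover counting error only.

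Both clones came from mouse embryonic fibroblasts with the strain label Myod1tm1Jae, turned into iMPCs by Myf6, a muscle transcription factor, with the adenylyl cyclase activator forskolin, the TGF-beta receptor inhibitor RepSox and the GSK3 inhibitor CHIR99021. Colonies that no longer needed Myf6 were picked, and at passage 4 both clones were still in the medium for iMPCs, which held 5 µM forskolin, 5 µM RepSox, 3 µM CHIR99021 and 10 ng/mL bFGF. Each genotype is 1 clone and 1 library, so genotype, clone and library cannot be told apart, no difference has a replicate check, and no p-value is given.

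KO early myocytes had a median of 40426 UMIs and 5824 genes, and WT early myocytes 31218 UMIs and 4974 genes. The levels below rest on 13229147 UMIs from KO and 9591353 from WT early myocytes. The median mitochondrial share was 8.02% in KO and 7.06% in WT. The 4 Y-linked genes summed to 1.36 CPM in KO early myocytes and 211 in WT ones. Sex is not among the labels and cannot be told apart from genotype. The libraries shared 14 barcodes, and none of them was an early myocyte.

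Skeletal muscle precursors divide under the control of Pax7, while Myf5 and MyoD set their muscle identity. Commitment is marked by myogenin (Myog), a basic helix-loop-helix factor that binds E-boxes of muscle genes together with E proteins. A committed myocyte leaves the cell cycle with the help of the CDK inhibitors p57 (Cdkn1c) and p21 (Cdkn1a), makes the fusion proteins myomaker (Mymk) and myomixer (Mymx), and later fills with contractile protein. Rbm24 is an RNA-binding protein that steers muscle splicing. Levels are given as CPM, the summed UMIs of a class of cells per 1000000 UMIs of that class. Early myocytes were set beside 3 other classes of the same library. These were 2637 KO and 3964 WT progenitors (at least 1 Pax7 UMI, at most 1 Myog UMI), 1158 KO and 1174 WT muscle-rich cells (at least 1% of UMIs in the 5 contractile genes), and 229 KO and 316 WT cycling Myog-positive cells, which by rule differ only in having more Mki67 and Top2a.

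The promoters of Myog and Rbm24 are shown because both genes mark these cells and the E-box is the sequence that myogenin and MyoD bind. They are RefSeq sequences of GRCm38.p6, from 250 bases before to 50 bases after the annotated start, with each E-box (CANNTG) in capitals. The Myog window is chr1:134289754-134290053 and the Rbm24 window chr13:46418050-46418349, both on the + strand.
Myog promoter: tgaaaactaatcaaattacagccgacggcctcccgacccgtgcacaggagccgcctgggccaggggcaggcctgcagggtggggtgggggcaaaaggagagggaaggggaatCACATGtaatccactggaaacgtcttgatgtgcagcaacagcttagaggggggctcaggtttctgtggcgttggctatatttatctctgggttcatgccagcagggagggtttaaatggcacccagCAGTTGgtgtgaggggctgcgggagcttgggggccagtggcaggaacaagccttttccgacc
Rbm24 promoter: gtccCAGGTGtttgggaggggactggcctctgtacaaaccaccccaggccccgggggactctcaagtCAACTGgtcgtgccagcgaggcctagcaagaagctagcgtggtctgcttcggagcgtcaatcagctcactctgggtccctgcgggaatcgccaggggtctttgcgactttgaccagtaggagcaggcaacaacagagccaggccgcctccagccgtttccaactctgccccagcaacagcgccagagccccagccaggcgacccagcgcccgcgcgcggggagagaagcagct
In the Myog window CANNTG began 138 and 12 bases before the start, and in the Rbm24 window 246 and 183 bases before it. CANNTG reads the same on both strands, and CAGCTG is one of its forms. Of the 32851 windows in the table, 72.3% held CANNTG, 16.3% held CAGCTG and 3.19% held the MEF2 consensus, searched on both strands. The 93 genes that were above both progenitors and muscle-rich cells, described further on, had 125 windows for 74 of them. CANNTG was in 72.8% of these windows, CAGCTG in 25.6% and the MEF2 consensus in 4.80%. Such matches describe the letters of the window and are not evidence of binding.

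All 5 marker genes were above their progenitor levels in both libraries, and Myog, Cdkn1c and Rbm24 were above their muscle-rich levels too. For Myog this order describes the choice of cells. The rule sets a minimum in early myocytes and a maximum in progenitors, and no Myog limit in muscle-rich cells. Myog (ENSMUSG00000026459), which the rule used, was at 1646 CPM in KO early myocytes against 9.72 in KO progenitors, and 1194 CPM in WT early myocytes against 8.54 in WT progenitors. Muscle-rich cells had less, 1033 CPM in the KO library and 1041 CPM in the WT library. Over single KO early myocytes it ran from 2.14 per 10000 UMIs through a median of 15.02 to 44.0, and over WT early myocytes from 2.05 through 10.9 to 36.2. The ranges of the clones overlapped over most of their length.

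**Figure D1:**
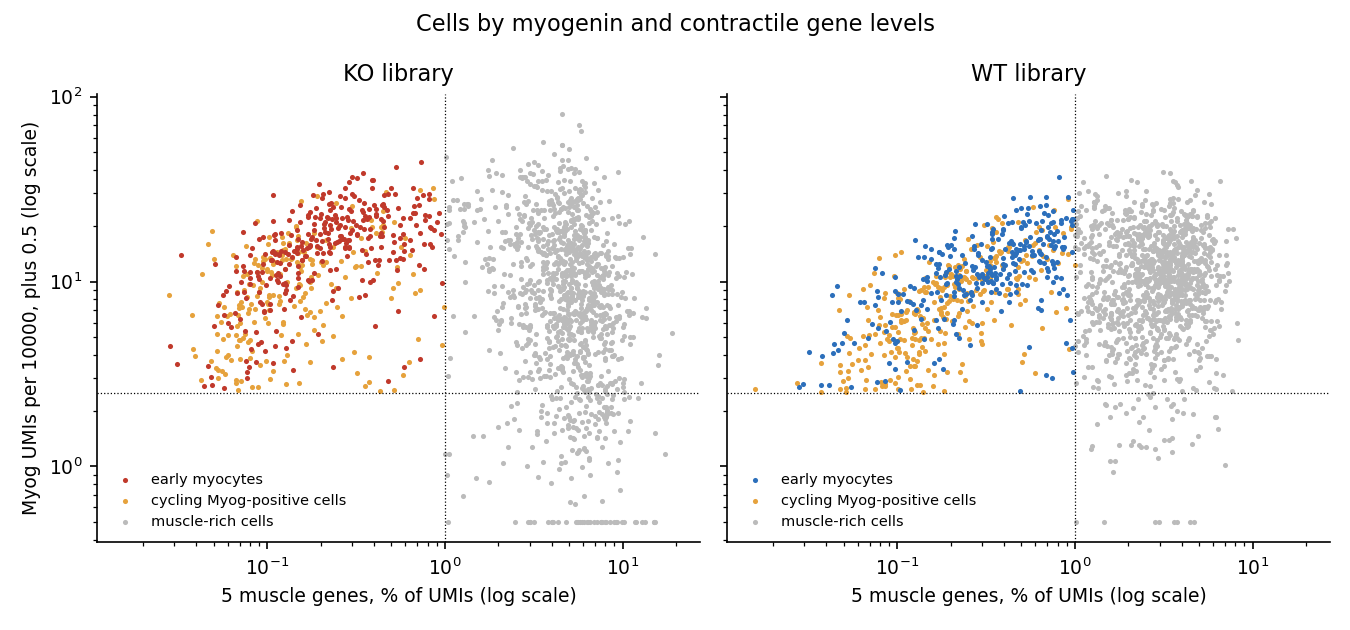
Each point is a cell, KO library left and WT library right, with the percent of its UMIs in the 5 contractile genes (x, log scale) against Myog UMIs per 10000 plus 0.5 (y, log scale). The 329 KO and 305 WT early myocytes lie above the dotted Myog limit and left of the dotted 1% limit that divides them from the muscle-rich cells, and they overlap with the cycling Myog-positive cells. Progenitors are not plotted.

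Cdkn1c (ENSMUSG00000037664), the most abundant of the markers, was at 8527 CPM in KO early myocytes against 2632 in KO progenitors, and 3373 CPM in WT early myocytes against 433 in WT progenitors. Cycling Myog-positive cells had 7024 CPM for KO and 1939 for WT, and muscle-rich cells 1511 CPM in KO and 1789 in WT. Early myocytes thus held the highest level of the 4 classes in both clones. Rbm24 (ENSMUSG00000038132) was at 544 CPM in KO early myocytes against 16.5 in KO progenitors, and 528 CPM in WT early myocytes against 42.1 in WT progenitors. It was lower again in muscle-rich cells, at 245 CPM in KO and 286 in WT.

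The fusion genes followed other courses. Mymk (ENSMUSG00000009214) was at 379 CPM in KO early myocytes against 6.23 in KO progenitors, and 266 CPM in WT early myocytes against 4.15 in WT progenitors. It was higher still in muscle-rich cells, at 570.0 CPM in KO and 471 in WT. Mymx (ENSMUSG00000079471) was at 168 CPM in KO early myocytes against 2.51 in KO progenitors, and 220.2 CPM in WT early myocytes against 2.78 in WT progenitors. Muscle-rich cells had 116 CPM of it in KO and 243 CPM in WT, so that it was higher in early than in muscle-rich cells in the KO clone and slightly lower in the WT clone.

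**Figure D2:**
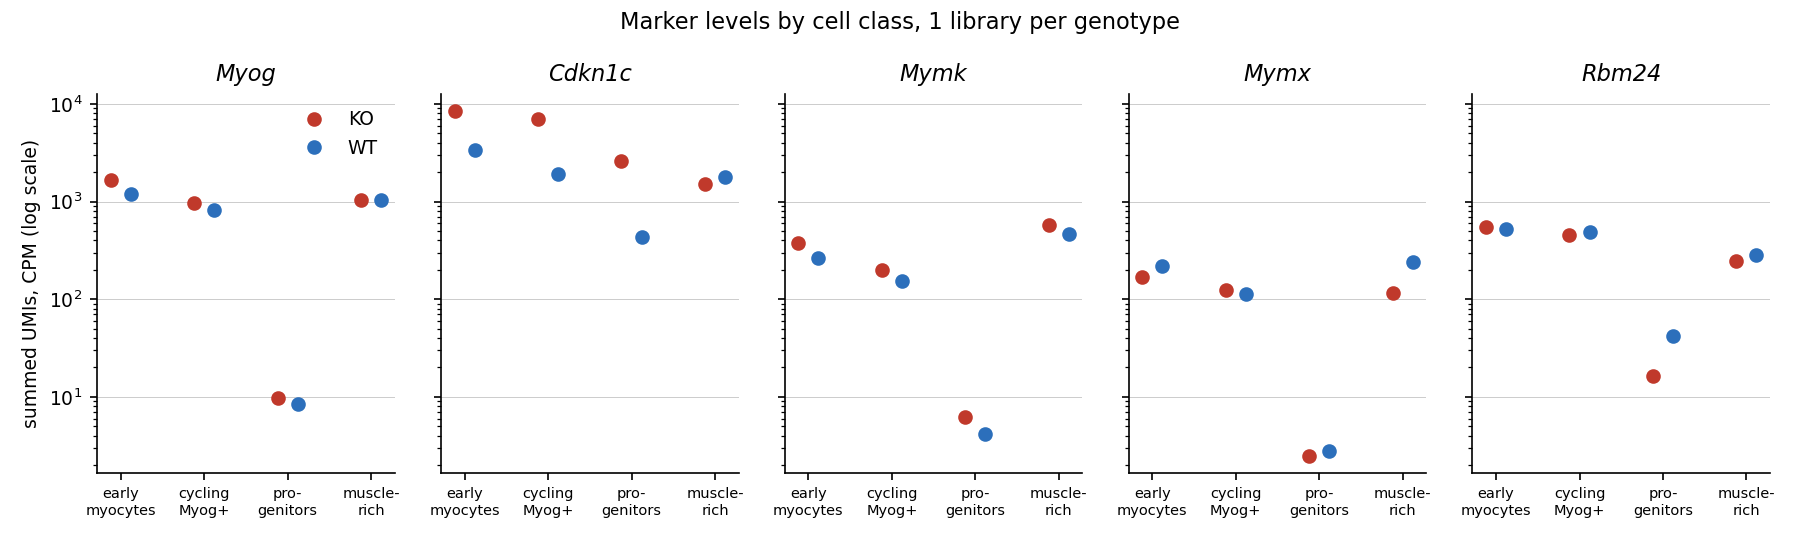
Summed UMIs of the 5 markers in CPM (log scale) by cell class, KO in red left of WT in blue, 1 library each. Myog (a gene of the rule), Cdkn1c and Rbm24 are highest in early myocytes in both libraries, Mymk is highest in muscle-rich cells, and progenitors are lowest except for Cdkn1c in KO.

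Most early myocytes held transcripts of the fusion genes. After thinning each cell to 5000 UMIs, which kept 316 KO and 300 WT early myocytes, Mymk had a UMI in 63.9% (58.4 to 69.2) of KO and 59.0% (53.2 to 64.6) of WT early myocytes. Progenitors, which should lack it, gave 2.96% (2.35 to 3.69) in KO and 1.95% (1.54 to 2.43) in WT, with median depths of 38217 UMIs in KO and 34885 in WT before thinning. For Mymx the shares were 44.6% (39.1 to 50.3) of KO and 58.0% (52.2 to 63.6) of WT early myocytes, against 1.22% (0.833 to 1.71) of KO and 1.29% (0.962 to 1.69) of WT progenitors. The shares in early myocytes were far above those in progenitors. Unthinned, 87.8% of KO and 87.9% of WT early myocytes had a Mymk UMI, and 85.1% of KO and 92.1% of WT early myocytes a Mymx UMI, against 19.6% of KO and 13.3% of WT progenitors for Mymk and 8.53% of KO and 9.36% of WT progenitors for Mymx. Rbm24 had a UMI after thinning in 88.3% (84.2 to 91.6) of KO and 88.0% (83.8 to 91.5) of WT early myocytes, against 7.11% of KO and 16.8% of WT progenitors.

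Just inside and just outside the limits of the rule, levels differed little for some markers and more for others, and some of these groups held few cells. The 18 KO and 36 WT early myocytes with at least 0.75% of UMIs in the contractile genes had Mymk at 801 CPM for KO and 470.1 for WT, and the 12 KO and 32 WT cells just past the limit of 1% had it at 746 CPM in KO and 588 in WT. Early myocytes with 2 to 3 Myog UMIs per 10000 had Mymk at 17.8 CPM for KO and 23.9 for WT, and cells with 1 to 2 had it at 18.4 CPM in KO and 13.7 in WT. At 0.25 to 0.5 Mki67 and Top2a UMIs per 10000, early myocytes had Cdkn1c at 8404 CPM for KO and 3076 for WT, and cells at 0.5 to 0.75 had it at 6846 CPM in KO and 2322 in WT. With 1 Pax7 UMI, early myocytes had Mymk at 239 CPM for KO and 191 for WT, and cells with 2 Pax7 UMIs had it at 107 CPM in KO and 90.8 in WT. At this limit Mymk was thus more than 2-fold apart in both clones.

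Myod1, the gene of the genotype label, was lower in KO than in WT early myocytes but was not absent. It was at 84.7 CPM in KO early myocytes and 264 in WT ones, a KO/WT ratio of 0.320 (0.298 to 0.344). After thinning it had a UMI in 35.4% (30.2 to 41.0) of KO and 75.7% (70.4 to 80.4) of WT early myocytes. The extent of the deletion is not given in the labels, so these 3' tags may lie outside it and do not check the genotype. Myod1 was higher in early myocytes than in progenitors, which had 52.8 CPM in KO and 112 in WT.

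The other determination factors were low. Myf5, which specifies myoblasts alongside MyoD, was at 5.52 CPM in KO early myocytes against 88.5 in KO progenitors, and 1.36 CPM in WT early myocytes against 23.5 in WT progenitors. Myf6 was at 2.95 CPM in KO early myocytes and 0.521 in WT ones, and its UMIs may stem from the endogenous gene or the vector, which cannot be told apart. Pax7, which the rule limits, was at 3.93 CPM in KO early myocytes and 6.36 in WT ones. Its embryonic relative Pax3 had 16 UMIs in KO and 0 in WT early myocytes, where a count of 0 allows up to 0.313 CPM. All of these levels were far below that of Myog.

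Other muscle regulators went both ways. Called here means at least 2-fold apart in the same direction in both libraries, with at least 10 CPM in the higher class of each. Of 17 other muscle regulators tested, 6 were higher and 2 lower in early myocytes than in progenitors, where 5.06% of all 7769 genes tested were higher and 12% lower. The rule itself separates these classes, so such counts describe them and test nothing. Mef2c, which acts with myogenin on contractile genes, was at 199 CPM in KO early myocytes against 19.3 in KO progenitors, and 683 CPM in WT early myocytes against 46.8 in WT progenitors. Its relative Mef2a was at 1123 CPM in KO early myocytes against 198 in KO progenitors, and 679.8 CPM in WT early myocytes against 98.3 in WT progenitors. Eya2, a cofactor and phosphatase that works with sine oculis-type homeobox factors, was at 19.6 CPM in KO early myocytes against 0.0279 in KO progenitors, and 35.0 CPM in WT early myocytes against 1.37 in WT progenitors. Eya1, of the same family, ran the other way, at 27.5 CPM in KO early myocytes against 267 in KO progenitors, and 18.04 CPM in WT early myocytes against 245 in WT progenitors. Eya2 was thus higher and Eya1 lower than in progenitors in both clones, and Eya2 was above Eya1 in WT early myocytes alone. Hes6, which counters the repressor Hes1, was at 377 CPM in KO early myocytes against 89.5 in KO progenitors, and 177 CPM in WT early myocytes against 21.4 in WT progenitors.

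Genes that restrain myogenic factors were mostly lower. Of 15 inhibitors of basic helix-loop-helix factors 2 were higher and 9 lower in early myocytes than in progenitors. Their median log2 ratio was -1.47 in KO and -1.56 in WT, beside -0.09 in KO and -0.21 in WT over all genes tested. TMM scaling, which centres the ratios, moved the medians over all genes to 0.06 in KO and -0.05 in WT. Msc (musculin), a repressor that competes at E-boxes, was at 1.13 CPM in KO early myocytes against 21.9 in KO progenitors, and 4.69 CPM in WT early myocytes against 78.2 in WT progenitors. Id3, which keeps E proteins from DNA, was at 128 CPM in KO early myocytes against 395 in KO progenitors, and 81.3 CPM in WT early myocytes against 247 in WT progenitors, and Id1 and Id2 were also lower. The exceptions were Zeb1 and Sox8. Sox8, which can hold back myoblast differentiation, was at 80.9 CPM in KO early myocytes against 8.66 in KO progenitors, and 29.4 CPM in WT early myocytes against 1.63 in WT progenitors.

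Notch signalling keeps satellite cells undifferentiated, and of 12 genes of the pathway 2 were higher and 6 lower in early myocytes than in progenitors. The receptor Notch3 was at 14.8 CPM in KO early myocytes against 206 in KO progenitors, and 3.65 CPM in WT early myocytes against 121 in WT progenitors. The target Hes1 was at 5.06 CPM in KO early myocytes against 88.7 in KO progenitors, and 4.90 CPM in WT early myocytes against 49.4 in WT progenitors. The target Heyl was at 7.41 CPM in KO early myocytes against 99.9 in KO progenitors, and 1.46 CPM in WT early myocytes against 21.0 in WT progenitors. This receptor and these targets were low together. Notch1 moved less, with a log2 ratio of -0.46 in KO and 0.19 in WT. So did Notch2, with -0.51 in KO and -0.44 in WT. The list summed to 703 CPM in KO early myocytes against 1144 in KO progenitors, and 737 in WT early myocytes against 713 in WT progenitors. The ligand Dll1 was higher, at 73.1 CPM in KO early myocytes against 6.91 in KO progenitors, and 50.3 CPM in WT early myocytes against 22.8 in WT progenitors. Against progenitors under the same Mki67 and Top2a limit, its log2 ratio was 3.02 in KO and 0.73 in WT. The other higher gene was Rbpj, the DNA-binding partner of the Notch receptors, at 184 CPM in KO early myocytes against 57.9 in KO progenitors, and 289 CPM in WT early myocytes against 99.2 in WT progenitors.

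Cell cycle genes beside Mki67 and Top2a were low as well. Of 50 G2M genes (mitosis) 45 were lower in early myocytes than in progenitors and 0 higher, and of 42 S phase genes (DNA replication) 36 were lower. Median log2 ratios were -3.69 in KO and -3.21 in WT for G2M and -2.05 in KO and -2.31 in WT for S phase. The mitotic kinesin Kif11 was at 1.59 CPM in KO early myocytes against 84.5 in KO progenitors, and 2.71 CPM in WT early myocytes against 104 in WT progenitors. Nusap1, a spindle protein, was at 2.57 CPM in KO early myocytes against 103 in KO progenitors, and 3.44 CPM in WT early myocytes against 117 in WT progenitors. The S phase gene that went the other way was E2f8, a repressor among the E2F factors, at 45.7 CPM in KO early myocytes against 15.2 in KO progenitors, and 30.0 CPM in WT early myocytes against 14.6 in WT progenitors.

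These ratios depended on which progenitors stood on the other side. Against the 686 KO and 406 WT progenitors under the same Mki67 and Top2a limit, the G2M median was -0.45 in KO and -0.95 in WT and the S phase median -0.94 in KO and -1.70 in WT. Kif11 then had a log2 ratio of 0.59 in KO, the opposite sign, and -1.03 in WT. Mymk kept 5.46 in KO and 6.06 in WT, and Cdkn1c 1.89 in KO and 1.67 in WT.

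Replication genes were not at their lowest in early myocytes. The S phase list summed to 952 CPM in KO early myocytes, 2977 in KO cycling Myog-positive cells, 2816 in KO progenitors and 488 in KO muscle-rich cells. The sums were 799.9 CPM in WT early myocytes, 2383 in WT cycling cells, 3306 in WT progenitors and 639 in WT muscle-rich cells. The G2M list, by contrast, summed to 1170.4 CPM for KO and 1525 CPM for WT early myocytes, under the 1283 CPM of KO and 1653 CPM of WT muscle-rich cells. The rule holds Mki67 and Top2a down in early myocytes and not in muscle-rich cells, so the low G2M sum is not independent of how the cells were chosen. After thinning, Pcna, the sliding clamp of replication, had a UMI in 25.3% (20.6 to 30.5) of KO and 24.0% (19.3 to 29.2) of WT early myocytes, against 12.9% (11.0 to 15.1) of KO and 13.3% (11.4 to 15.4) of WT muscle-rich cells.

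Genes that hold cells out of the cycle were mixed, with 5 of 21 higher and 3 lower in early myocytes than in progenitors. Rb1, the retinoblastoma protein that blocks E2F factors, was at 229.7 CPM in KO early myocytes against 31.1 in KO progenitors, and 283 CPM in WT early myocytes against 28.4 in WT progenitors. Its relative Rbl1 (p107) was at 6.198 CPM in KO early myocytes against 34.6 in KO progenitors, and 4.48 CPM in WT early myocytes against 43.1 in WT progenitors. Gadd45g, which can inhibit CDK1, was at 154 CPM in KO early myocytes against 30.3 in KO progenitors, and 115 CPM in WT early myocytes against 14.0 in WT progenitors. Rb1 and Gadd45g were thus up and Rbl1 down in both clones. The antiproliferative gene Btg1 was at 239 CPM in KO early myocytes against 63.2 in KO progenitors, and 159.9 CPM in WT early myocytes against 22.0 in WT progenitors. Cdkn1a was at 546 CPM in KO early myocytes against 323 in KO progenitors, and 530.3 CPM in WT early myocytes against 98.5 in WT progenitors, past 2-fold in WT alone, and muscle-rich cells had 1678 CPM of it in KO and 1199 CPM in WT. The CDK inhibitors differed in that Cdkn1c was highest in early myocytes and Cdkn1a in muscle-rich cells.

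Muscle genes outside the rule were on in early myocytes. Of 27 early sarcomere genes other than the 5 of the rule, 20 were higher than in progenitors and 0 lower, with median log2 ratios of 2.10 in KO and 2.95 in WT. These genes follow the 5 contractile genes that bound the class. Tnnt2, the troponin T of embryonic muscle and heart, was at 383 CPM in KO early myocytes against 26.9 in KO progenitors, and 529 CPM in WT early myocytes against 17.7 in WT progenitors. The Z-disc gene Ldb3 was at 99.0 CPM in KO early myocytes against 5.75 in KO progenitors, and 93.3 CPM in WT early myocytes against 4.68 in WT progenitors. The M-band gene Myom1 was at 54.5 CPM in KO early myocytes against 2.71 in KO progenitors, and 73.1 CPM in WT early myocytes against 2.55 in WT progenitors. Genes of the thin filament, the Z-disc and the M-band were thus all represented. Chaperones of sarcomere assembly were higher in 9 of 10 cases. Among them the myosin chaperone Unc45b was at 14.2 CPM in KO early myocytes against 0.929 in KO progenitors, and 26.5 CPM in WT early myocytes against 0.792 in WT progenitors. Trim55, a ubiquitin ligase of the forming sarcomere, was at 64.9 CPM in KO early myocytes against 1.26 in KO progenitors, and 170.3 CPM in WT early myocytes against 5.25 in WT progenitors.

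**Figure D3:**
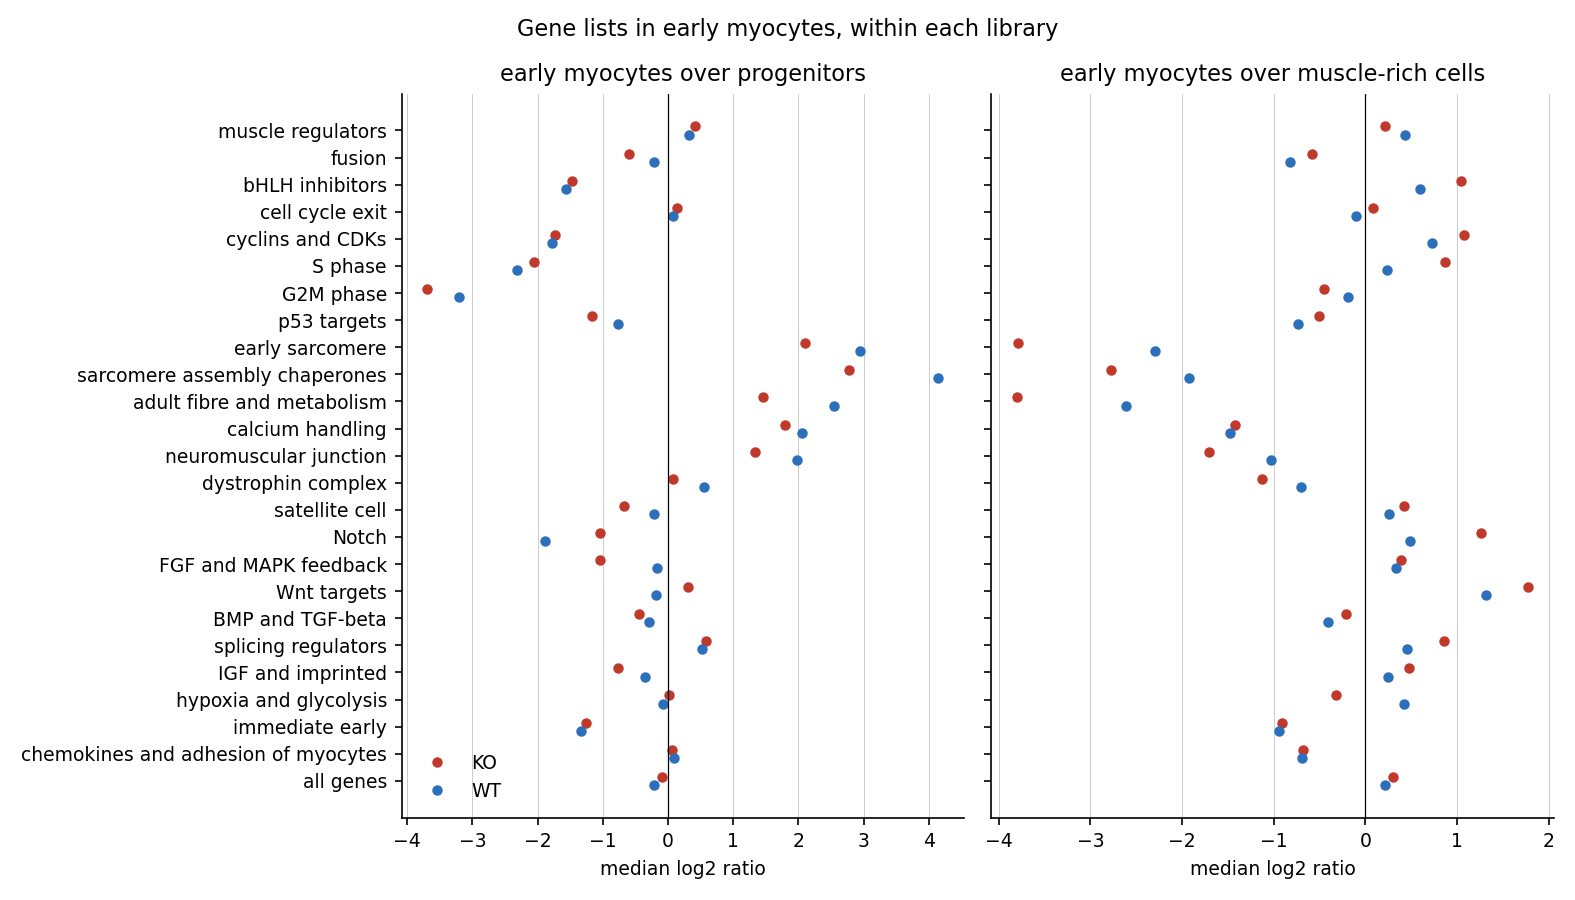
Median log2 ratio of each gene list in early myocytes over progenitors (left) and over muscle-rich cells (right), KO in red above WT in blue, over members with at least 10 CPM in the higher class of each library and without the genes of the rule. Over progenitors the sarcomere, chaperone and calcium lists lie right of 0 and the S phase and G2M lists left of it, and over muscle-rich cells the contractile lists lie left of 0.

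Calcium-handling genes were higher than in progenitors in 11 of 16 cases and lower in 0. Ryr1, the release channel of the sarcoplasmic reticulum, was at 103 CPM in KO early myocytes against 23.6 in KO progenitors, and 160.5 CPM in WT early myocytes against 40.9 in WT progenitors. Srl (sarcalumenin), which binds calcium inside that store, was at 136 CPM in KO early myocytes against 18.5 in KO progenitors, and 135 CPM in WT early myocytes against 16.2 in WT progenitors. Of 8 neuromuscular junction genes 4 were higher and 0 lower. Dok7, the activator of the receptor kinase MuSK, was at 54.0 CPM in KO early myocytes against 1.28 in KO progenitors, and 58.8 CPM in WT early myocytes against 2.82 in WT progenitors. The list for adult fibres had 5 of 8 genes higher and 0 lower. It includes the adult fast myosin Myh1, at 327 CPM in KO early myocytes against 31.5 in KO progenitors, and 115 CPM in WT early myocytes against 5.996 in WT progenitors.

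Of 14 fusion genes 4 were higher than in progenitors and 3 lower. Besides Mymk, Mymx and Cav3, the higher gene was Jam3, an adhesion molecule, at 280.4 CPM in KO early myocytes against 20.7 in KO progenitors, and 185 CPM in WT early myocytes against 28.7 in WT progenitors. Kirrel, an adhesion molecule of the nephrin family, was among the lower ones, at 3.86 CPM in KO early myocytes against 37.7 in KO progenitors, and 2.61 CPM in WT early myocytes against 39.4 in WT progenitors. Adhesion genes for fusion therefore did not move as a block.

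Genes with the highest ratios over progenitors were not all muscle genes. Tmem178b, a membrane protein, was at 449 CPM in KO early myocytes against 1.76 in KO progenitors, and 73.4 CPM in WT early myocytes against 0.200 in WT progenitors. Kcnk13, a background potassium channel, was at 164 CPM in KO early myocytes against 0.288 in KO progenitors, and 87.3 CPM in WT early myocytes against 0.441 in WT progenitors. Sntb1 (beta-1 syntrophin), an adaptor of the dystrophin complex, was at 544 CPM in KO early myocytes against 4.06 in KO progenitors, and 491 CPM in WT early myocytes against 12.4 in WT progenitors. Each was close to absent from progenitors of both clones, apart from Sntb1 in WT. Casz1, a zinc-finger factor, was at 124 CPM in KO early myocytes against 1.45 in KO progenitors, and 149 CPM in WT early myocytes against 3.10 in WT progenitors. The log2 ratio was 6.84 in KO and 6.36 in WT for the secreted matrix protein Spon1, 6.23 in KO and 7.13 in WT for the filamin-binding protein Filip1 and 5.28 in KO and 6.97 in WT for the RNA-binding protein Samd4.

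A small set of genes stood above both progenitors and muscle-rich cells in early myocytes. Of 6914 genes tested, 93 (1.35%) were at least 2-fold above both progenitors and muscle-rich cells in both libraries, and 66 (0.955%) at least 2-fold below both. Cycling Myog-positive cells were not part of this count. Of the 93 genes, 81 were also above, by any margin, their level in cycling Myog-positive cells of both libraries, and 12 were not, among them Sox8 at 80.9 CPM in KO early and 85.8 in KO cycling cells. Such margins could be small, as for Rgs16 at 130 CPM in KO and 85.4 in WT cycling cells. Over all 7220 genes tested against cycling cells, 37 (0.512%) were at least 2-fold higher in early myocytes of both libraries. Eya2 was among the 81, with 1.34 CPM in KO and 1.42 in WT muscle-rich cells. Sox8 had 3.61 CPM in KO and 1.29 in WT muscle-rich cells, and Tmem178b 14.7 CPM in KO and 6.16 in WT muscle-rich cells. Set beside the progenitor levels above, all 3 were high in early myocytes and low on either side. Lef1, the DNA-binding factor of canonical Wnt signalling, was at 93.4 CPM in KO early myocytes against 5.42 in KO progenitors and 4.24 in KO muscle-rich cells, and 209 CPM in WT early myocytes against 36.3 in WT progenitors and 24.1 in WT muscle-rich cells. Pde2a, which breaks down cyclic nucleotides, was at 66.0 CPM in KO early myocytes against 1.66 in KO progenitors and 5.06 in KO muscle-rich cells, and 31.7 CPM in WT early myocytes against 0.282 in WT progenitors and 2.59 in WT muscle-rich cells. Rgs16, a brake on G-protein signalling, was at 140.1 CPM in KO early myocytes against 7.93 in KO progenitors and 9.95 in KO muscle-rich cells, and 103 CPM in WT early myocytes against 7.04 in WT progenitors and 16.6 in WT muscle-rich cells.

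Receptors and a transporter showed the same shape. The estrogen receptor Esr1 was at 279 CPM in KO early myocytes against 65.1 in KO progenitors and 19.5 in KO muscle-rich cells, and 128 CPM in WT early myocytes against 23.9 in WT progenitors and 9.13 in WT muscle-rich cells. Slc24a3, which exchanges sodium for calcium and potassium, was at 419.9 CPM in KO early myocytes against 28.1 in KO progenitors and 17.1 in KO muscle-rich cells, and 443 CPM in WT early myocytes against 85.3 in WT progenitors and 55.9 in WT muscle-rich cells. Megf10, a receptor that regulates satellite cells, was at 376 CPM in KO early myocytes against 58.4 in KO progenitors and 49.4 in KO muscle-rich cells, and 356 CPM in WT early myocytes against 71.6 in WT progenitors and 91.3 in WT muscle-rich cells. Adam12, a metalloprotease made by fusing myoblasts, was at 389 CPM in KO early myocytes against 27.3 in KO muscle-rich cells, and 300.2 CPM in WT early myocytes against 55.0 in WT muscle-rich cells. These 4 were plentiful in early myocytes of both clones. The 66 genes below both progenitors and muscle-rich cells include Pax7, Mki67 and Top2a of the rule, and mitotic genes such as Kif11 and Nusap1. The rule holds Pax7, Mki67 and Top2a down in early myocytes, so part of this count was set by the choice of cells. Of the 66, 46 were also below cycling Myog-positive cells in both libraries, which by rule have more Mki67 and Top2a. Among the 66, Prrx1, a homeobox factor of mesenchyme chosen after its values were seen, was at 92.4 CPM in KO early myocytes against 546 in KO progenitors and 241 in KO muscle-rich cells, and 43.9 CPM in WT early myocytes against 309 in WT progenitors and 155 in WT muscle-rich cells.

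Against muscle-rich cells, early myocytes were short of contractile transcript as the rule requires. Over all 7298 genes tested, 493 (6.76%) were higher in early myocytes and 558 (7.65%) lower. The higher genes were 46.9% of the called genes with CPM and 27.7% after TMM scaling, which gave 276 higher and 720 lower. The median log2 ratio of all genes was 0.30 in KO and 0.21 in WT with CPM, and 0.03 in KO and 0.02 in WT with TMM, so ratios here are best read against that shift. Of 37 early sarcomere genes 33 were lower and 0 higher, with medians of -3.79 in KO and -2.29 in WT. Lower too were 15 of 16 adult fibre genes, 13 of 15 assembly chaperones, 13 of 19 calcium-handling genes and 7 of 15 genes of the dystrophin complex, and none of these lists had a higher gene.

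Some genes of the finished fibre were near 0 in early myocytes, though not all, as the 327 CPM of Myh1 in KO and 115 in WT show. Casq1, the calcium store protein of fast fibres, was at 4.61 CPM in KO early myocytes against 244 in KO muscle-rich cells, and 2.502 CPM in WT early myocytes against 159 in WT muscle-rich cells. The slow myosin Myh7 was at 3.40 CPM in KO early myocytes against 146 in KO muscle-rich cells, and 4.90 CPM in WT early myocytes against 213 in WT muscle-rich cells. Mstn (myostatin), the growth inhibitor that muscle secretes, was at 1.21 CPM in KO early myocytes against 75.6 in KO muscle-rich cells, and 2.82 CPM in WT early myocytes against 102 in WT muscle-rich cells. Other genes were on but lower. Cav3 (caveolin-3), a protein of the fibre membrane, was at 20.3 CPM in KO early myocytes against 442 in KO muscle-rich cells, and 38.0 CPM in WT early myocytes against 594 in WT muscle-rich cells. Tnnt2 was at 383 CPM in KO early myocytes against 2375 in KO muscle-rich cells, and 529 CPM in WT early myocytes against 2471 in WT muscle-rich cells. Mef2c was at 199 CPM in KO early myocytes against 1129 in KO muscle-rich cells, and 683 CPM in WT early myocytes against 2012 in WT muscle-rich cells, whereas Mef2a was higher in early myocytes, beside 467 CPM in KO and 315 in WT muscle-rich cells. Of 10 Notch genes 5 were higher than in muscle-rich cells and 1 lower. Dll1 was one of the higher, beside 11.7 CPM in KO and 11.4 in WT muscle-rich cells, and Hes1 was the lower one.

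Cycling Myog-positive cells were the nearest to early myocytes. Of 7220 genes 37 (0.512%) were higher in early myocytes and 333 (4.61%) lower. The lower genes took in 45 of 50 G2M and 34 of 41 S phase genes, which follow the Mki67 and Top2a of the rule. Of 15 muscle regulators 0 were higher and 0 lower. No listed regulator passed the size limit, which does not show that their levels were equal. Of 11 fusion genes 1 was higher, Cav3, at 20.3 CPM in KO early myocytes against 9.32 in KO cycling Myog-positive cells, and 38.0 CPM in WT early myocytes against 16.4 in WT cycling Myog-positive cells. The Z-disc gene Ldb3 was at 99.0 CPM in KO early myocytes against 29.1 in KO cycling Myog-positive cells, and 93.3 CPM in WT early myocytes against 35.9 in WT cycling Myog-positive cells. Actn2, the alpha-actinin of the Z-disc, was at 71.1 CPM in KO early myocytes against 32.2 in KO cycling Myog-positive cells, and 155 CPM in WT early myocytes against 70.8 in WT cycling Myog-positive cells. The few higher genes thus included structural ones. Spon1 was at 87.2 CPM in KO early myocytes against 27.3 in KO cycling Myog-positive cells, and 54.2 CPM in WT early myocytes against 14.9 in WT cycling Myog-positive cells. Tmem178b was at 449 CPM in KO early myocytes against 194 in KO cycling Myog-positive cells, and 73.4 CPM in WT early myocytes against 17.1 in WT cycling Myog-positive cells. The median contractile share was 0.217% in KO early and 0.123% in KO cycling cells, and 0.336% in WT early and 0.184% in WT cycling cells. Its part in these differences was not tested.

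Early myocytes differed among themselves in how much contractile transcript they held. Under 0.1%, at 0.1 to 0.3% and at 0.3 to 1% of UMIs there were 59, 162 and 108 KO cells and 37, 99 and 169 WT cells. The highest bin held 32.8% of KO and 55.4% of WT early myocytes, so more of the WT cells held much contractile transcript. Myog was at 824, 1653 and 2025 CPM over the KO bins and 517, 979 and 1439.9 CPM over the WT bins. Mymk was at 70.7, 342 and 578 CPM over the KO bins and 40.9, 178 and 358 CPM over the WT bins. Mymx was at 62.9, 147 and 247 CPM over the KO bins and 76.1, 145 and 289 CPM over the WT bins. All 3 were higher from bin to bin in both clones, and Myog and Mymk were higher in KO than in WT within each bin. Cdkn1c varied less, at 6253, 9173 and 8685 CPM over the KO bins and 2864, 3349.6 and 3483 CPM over the WT bins.

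**Figure D4:**
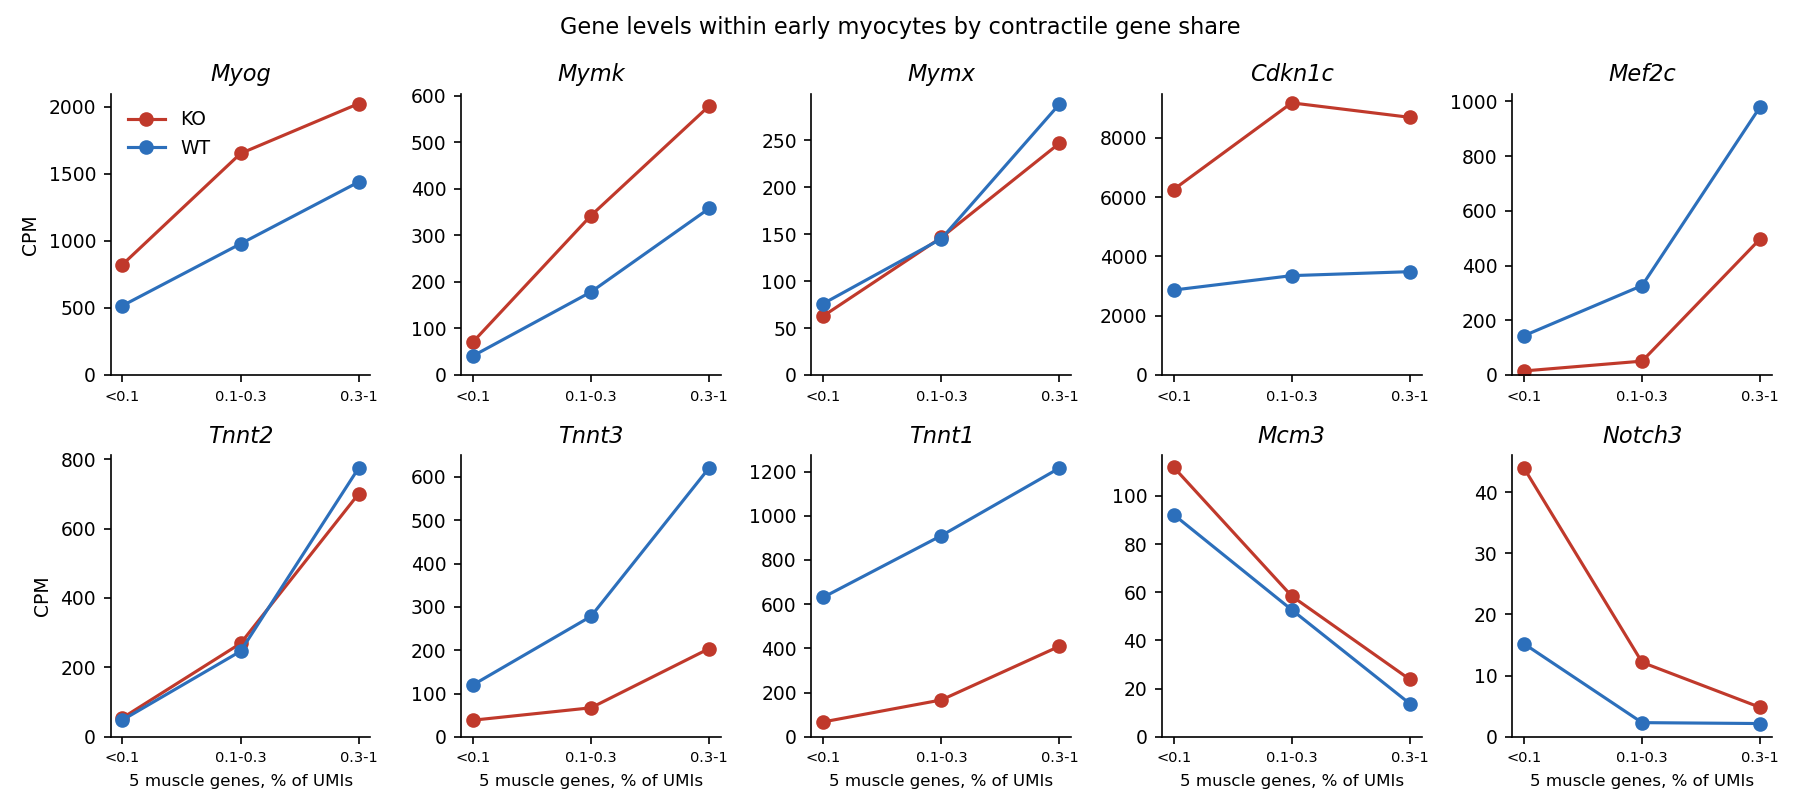
CPM (y, from 0) of 10 genes in early myocytes, in 3 bins of the percent of UMIs in the 5 contractile genes (x), KO in red and WT in blue, 1 library each. Myog, Mymk, Mymx and the troponin genes are higher from bin to bin in both libraries and Mcm3 and Notch3 lower, and Tnnt1, Tnnt3 and Mef2c are lower in KO than in WT in every bin.

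Some leading genes climbed steeply along the bins and others did not. Filip1 was at 8.78, 56.5 and 179 CPM over the KO bins and 11.4, 74.2 and 179 CPM over the WT bins. Sntb1 was at 89.2, 417 and 940.3 CPM over the KO bins and 127, 369.6 and 626 CPM over the WT bins. Spon1 differed between the clones, at 3.70, 86.0 and 128 CPM over the KO bins and 49.4, 60.7 and 51.6 CPM over the WT bins. Filip1 and Sntb1 were thus higher from bin to bin in both clones and Spon1 in KO alone. Esr1 was at 295, 358 and 159 CPM over the KO bins and 173, 184 and 88.5 CPM over the WT bins. Sox8 was at 109, 99.4 and 41.5 CPM over the KO bins and 38.0, 39.1 and 22.5 CPM over the WT bins. Both were lowest in the cells with most contractile transcript. The S phase list was lower from bin to bin. It summed to 1768, 981 and 525 CPM over the KO bins and 1593, 1011 and 533 CPM over the WT bins. Mcm3, a subunit of the replicative helicase, was at 112, 58.4 and 23.8 CPM over the KO bins and 92.2, 52.7 and 13.8 CPM over the WT bins. The G2M list was not, at 1331, 1127 and 1156 CPM over the KO bins and 1594, 1787 and 1369 CPM over the WT bins. Notch3 was at 43.9, 12.2 and 4.81 CPM over the KO bins and 15.2, 2.32 and 2.17 CPM over the WT bins. The Notch list as a whole summed to 844, 755 and 564 CPM over the KO bins and 883, 714 and 721 CPM over the WT bins, so it was lower at each step in KO alone. In the S phase list, Mcm3 and Notch3, the early myocytes with the least contractile transcript stood nearest to progenitors.

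The genotype was not used to choose the cells. KO and WT early myocytes were at least 2-fold apart in 1260 of 7872 genes with 10 CPM or more in the higher clone (16.0%), with 866 higher in KO (11.0%) and 394 lower (5.01%). The higher genes were 68.7% of these with CPM and 58.5% after TMM scaling, which gave 692 higher and 490 lower and moved the median log2 ratio of all genes to -0.01, against 0.17 with CPM. Many of the same genes differed in the other cells of the clones. Of all 8738 genes tested in progenitors, 1258 were higher and 365 lower in KO. Of all 7869 tested in muscle-rich cells, 880 were higher and 388 lower in KO. Opposite calls were made for 6 of the 866 and 18 of the 394 in progenitors. They were made for 8 and 5 in muscle-rich cells, and for 0 and 0 in cycling Myog-positive cells. Of the 866 genes, 497 (57.4% of these and 39.5% of the 1258 there) were also higher in KO progenitors, 410 (47.3% of these and 46.6% of the 880 there) in KO muscle-rich cells, and 711 (82.1% of these and 66.9% of the 1063 there) in KO cycling Myog-positive cells. Of the 394, 133 (33.8% of these and 36.4% of the 365 there) were also lower in KO progenitors, 162 (41.1% of these and 41.8% of the 388 there) in KO muscle-rich cells, and 254 (64.5% of these and 82.7% of the 307 there) in KO cycling Myog-positive cells.

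**Figure D5:**
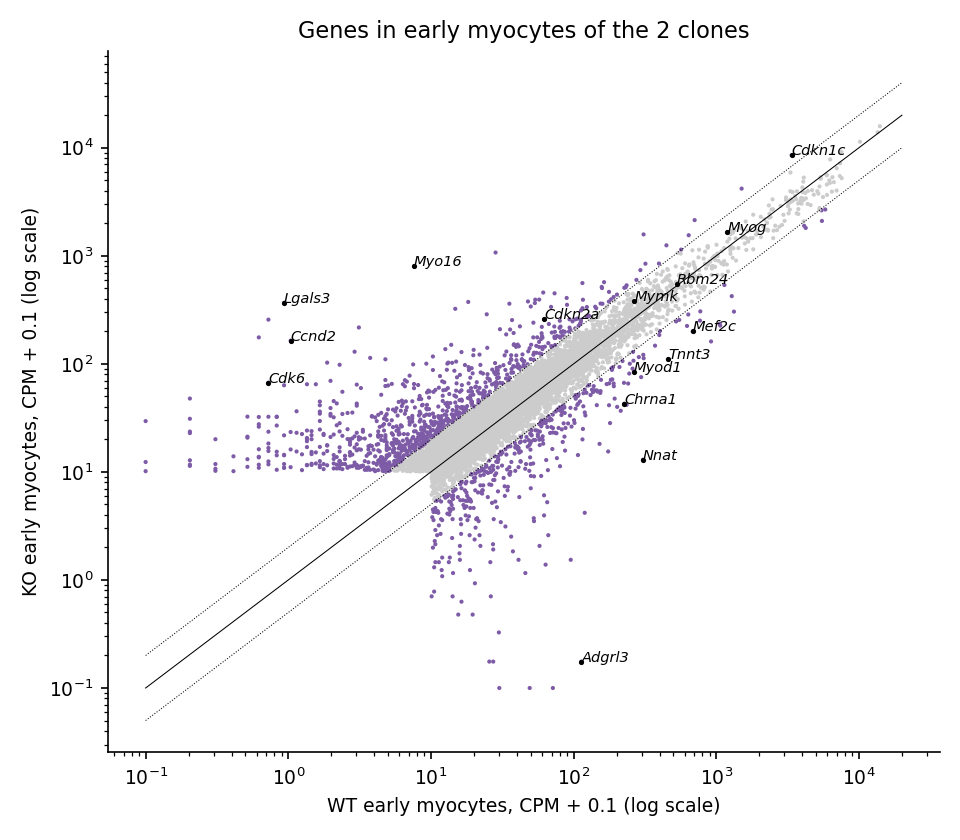
Each point is a gene with at least 10 CPM in the higher clone, placed by its level in WT (x) and KO (y) early myocytes as CPM plus 0.1 on log scales, 1 library each. Purple points, 1260 of 7872, are at least 2-fold apart, with Lgals3, Ccnd2, Cdk6 and Myo16 far above the diagonal and Adgrl3 far below it.

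Of the 5 markers Cdkn1c alone was 2-fold apart. Its KO/WT ratio in early myocytes was 2.53 (2.497 to 2.56), with the 95% interval in parentheses. That of Myog was 1.38 (1.35 to 1.41) and that of Mymk 1.42 (1.36 to 1.49). Mymx had a ratio of 0.761 (0.717 to 0.808) and Rbm24 of 1.03 (0.995 to 1.07). Most markers were thus within 2-fold between the clones. The Cdkn1c difference was wider in progenitors, at 2632 CPM in KO and 433 in WT. Of 18 genes of cell cycle exit 8 were higher in KO early myocytes and 0 lower, where 11.0% of all genes tested were higher and 5.01% lower. The median log2 ratio of the list was 0.51, beside 0.17 over all genes. In progenitors 13 of 22 were higher in KO and 0 lower (median 1.07), and in muscle-rich cells 5 of 21 higher and 2 lower (median 0.52). Cdkn2a, which encodes p16 and p19ARF, was at 259 CPM in KO early myocytes and 62.2 in WT ones. Gadd45b, a stress gene, was at 97.7 CPM in KO early myocytes and 22.1 in WT ones. Of 12 p53 targets 4 were higher and 0 lower. In progenitors 7 of 15 p53 targets were higher in KO and 0 lower, and in muscle-rich cells 2 of 12 higher and 0 lower.

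Cyclins and CDKs went both ways, with 3 of 15 higher and 3 lower in KO early myocytes. Of all genes tested 11.0% were higher and 5.01% lower. The cyclin gene Ccnd2, which acts in G1, was at 164 CPM in KO early myocytes and 0.938 in WT ones, and its partner kinase Cdk6 at 66.9 CPM in KO early myocytes and 0.626 in WT ones. Both were close to absent from WT early myocytes. Within the KO library neither was higher in early myocytes than in progenitors. The log2 ratio there was -0.87 for Ccnd2 and -0.83 for Cdk6. Among the G2M genes the chromatin protein Hmgb2 ran the other way, at 39.8 CPM in KO early myocytes and 202 in WT ones. Of 7 immediate early genes, which follow growth factor and stress signals, 4 were higher in KO and 0 lower. The other cells of the KO clone showed this too, with 11 of 13 higher in progenitors and 10 of 13 in muscle-rich cells, and 0 lower in both. Junb was at 63.6 CPM in KO early myocytes and 8.03 in WT ones, and Fos at 21.8 CPM in KO early myocytes and 4.17 in WT ones.

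Among the early sarcomere genes more were lower than higher in KO early myocytes. Of 32 early sarcomere genes outside the rule, 1 was higher and 16 lower in KO, with a median log2 ratio of -0.90. Of all genes tested 11.0% were higher and 5.01% lower. The slow troponin T gene Tnnt1 was at 235 CPM in KO early myocytes and 1056 in WT ones. The fast troponin T gene Tnnt3 was at 109.6 CPM in KO early myocytes and 458 in WT ones, and the tropomyosin gene Tpm1 at 304 CPM in KO early myocytes and 1329 in WT ones. The higher gene was Nebl (nebulette), at 20.9 CPM in KO early myocytes and 1.88 in WT ones. Muscle-rich cells did not show this, with 8 genes higher and 1 lower in KO of 38 and a median of 0.21, where 11.2% of all genes tested were higher and 4.93% lower. Their median contractile share was 5.12% in KO and 2.95% in WT, the other way round from early myocytes. Its part in this contrast was not tested. The adult fibre list had 2 of 11 genes higher and 2 lower in KO early myocytes. The higher ones included Myh1, with a KO/WT ratio of 2.84 (2.66 to 3.03), and a log2 ratio of 0.86 among cells under 0.5% contractile UMIs. The contractile share was itself lower in KO early myocytes. The adult fibre list, with a median log2 ratio of -0.28 over all early myocytes, had 0.60, 0.43 and 0.45 from the lowest to the highest bin. In the same order 3 of 8, 3 of 10 and 6 of 13 of its genes were higher in KO, and 1, 2 and 2 lower. The early sarcomere list shifted less within the bins than over all early myocytes. In the lowest bin 3 genes were higher and 7 lower in KO of 22 (median 0.07), where 15.5% of all genes were higher and 4.83% lower. In the middle bin 2 were higher and 9 lower of 27 (median -0.31), where 11.7% of all genes were higher and 4.61% lower. In the highest bin 5 were higher and 7 lower of 32 (median -0.28), where 11.5% of all genes were higher and 6.27% lower. Single genes kept their difference within bins. Tnnt3 was at 38.4, 67.0 and 204 CPM over the KO bins and 119.8, 278 and 621 CPM over the WT bins. Tnnt1 was at 67.5, 167 and 409.7 CPM over the KO bins and 631, 910.2 and 1216 CPM over the WT bins. Tnnt2, by contrast, was at 54.6, 269 and 700.3 CPM over the KO bins and 48.5, 247 and 775 CPM over the WT bins, close between the clones in each bin.

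Regulators and junction genes were also mostly lower where they differed. Of 16 muscle regulators 1 was higher and 5 lower in KO early myocytes, where 11.0% of all genes tested were higher and 5.01% lower. Their median log2 ratio was -0.07, and 0.25, -0.18 and -0.12 from the lowest to the highest contractile bin. Over these bins 2 of 17, 1 of 16 and 1 of 16 were higher and 5, 5 and 3 lower. Mef2c was at 199 CPM in KO early myocytes and 683 in WT ones, a ratio of 0.292 (0.279 to 0.305). Over the bins it was at 14.8, 50.7 and 498 CPM over the KO bins and 144, 327 and 980.4 CPM over the WT bins, lower in KO in each. Eya4, of the same family as Eya2, was at 15.3 CPM in KO early myocytes and 175 in WT ones. Hes6 was the higher gene, at 377 CPM in KO early myocytes and 177 in WT ones, with a log2 ratio of 1.09 that was 0.92 after TMM scaling. Of 10 junction genes 1 was higher and 4 lower, with a median log2 ratio of -0.53. From the lowest to the highest contractile bin the median was 0.14, -0.65 and -0.28. In these bins 1 of 9, 1 of 10 and 1 of 10 were higher and 3, 5 and 3 lower. The part of the contractile share in these differences was not tested. The acetylcholine receptor subunit Chrna1 was at 42.6 CPM in KO early myocytes and 226 in WT ones, and Rapsn, which clusters the receptor, at 6.95 CPM in KO early myocytes and 49.9 in WT ones. Of 14 fusion genes 2 were higher and 0 lower, close to the shares over all genes, so the count is no result about fusion genes. One was Elmo1, which helps activate Rac, at 31.0 CPM in KO early myocytes and 4.59 in WT ones. The other was Dysf (dysferlin), a membrane repair protein, at 11.8 CPM in KO early myocytes and 5.84 in WT ones, with a log2 ratio of 1.01 that was 0.84 after TMM scaling and -0.78 when each cell counted equally.

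The most unequal genes were of other kinds. Lgals3 (galectin-3), a sugar-binding protein, was at 367 CPM in KO early myocytes and 0.834 in WT ones. The calcium-binding protein S100a4 was at 256 CPM in KO early myocytes and 0.626 in WT ones, and Spp1 (osteopontin), a secreted ligand of integrins, at 176 CPM in KO early myocytes and 0.521 in WT ones. These genes were near 0 in WT. The unconventional myosin Myo16 was at 799 CPM in KO early myocytes and 7.51 in WT ones, the ephrin receptor Epha4 at 64.6 CPM in KO early myocytes and 1.251 in WT ones, and the netrin receptor Unc5c at 129 CPM in KO early myocytes and 2.82 in WT ones. In the other direction, the adhesion receptor Adgrl3 had 1 UMI in KO and 1086 UMIs in WT early myocytes, a KO/WT ratio of 0.000668 (1.69e-05 to 0.00373). The GDNF receptor Gfra1 was at 1.44 CPM in KO early myocytes and 95.3 in WT ones. Nnat (neuronatin), an imprinted membrane protein, was at 12.9 CPM in KO early myocytes and 306 in WT ones, and the muscle ankyrin-repeat protein Ankrd2 at 3.86 CPM in KO early myocytes and 61.9 in WT ones. Kcnc1, a potassium channel gene that neighbours Myod1 in the RefSeq gene order of GRCm38.p6, was at 2.49 CPM in KO early myocytes and 66.3 in WT ones.

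Markers of most other cell types were near 0 in early myocytes. The 6 endothelial genes summed to 1.21 CPM for KO and 0.834 for WT. The 6 immune genes summed to 1.59 CPM for KO and 2.09 for WT, with Ptprc and Cd3e at 0 in both. The 5 adipocyte genes summed to 2.42 CPM for KO and 0.834 for WT. No library stood out in these. The 7 neural or glial genes summed to 9.60 CPM for KO and 17.0 for WT, with Sox10 at 0 in both, and the 6 cartilage and bone genes to 32.7 CPM for KO and 36.7 for WT, with Acan and Col2a1 at 0 in both. The 8 smooth muscle genes summed to 1501 CPM for KO and 1819 for WT, with Myh11 at 0 in WT, and several of them are also made by early skeletal muscle. Fibroblast genes differed between the clones. The 12 genes summed to 158 CPM in KO, where Lum and Postn were at 0, and 17.9 CPM in WT early myocytes, where Dcn, Lum, Col1a1, Thy1, Twist2 and Ly6a were at 0. Progenitors had 965 CPM in KO and 118 in WT. The part of fibroblast transcripts in the KO/WT differences was not tested.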

How the data were processed

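Single-cell RNA was measured in 1 KO and 1 WT library. Per the labels, 12000 cells entered the 10x 3' workflow. The deposited matrices hold unnormalised UMI counts, whole numbers for each gene in each barcode, and the file headers give Cell Ranger 7.2.0 as the source. The submitters' processing notes list GRCm39 and Seurat without saying what Seurat did, and the annotation release is not given in the sources used here. The files hold 25906 genes, and 7670 KO and 8191 WT barcodes.

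Cells with under 1000 genes or over 15% mitochondrial UMIs were left out, 1888 in KO and 873 in WT. Scrublet in scanpy 1.11.5 (expected rate 0.06) called 144 KO cells (2.49%) and 2 WT cells (0.0273%), so it had not worked in WT and doublets were kept. Of the early myocytes, 1 KO and no WT cell were called.

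UMIs were summed per library and class and scaled to CPM, since cells are not replicates. Intervals are exact (Poisson, Clopper-Pearson, or conditional on the summed count) at 95%, and a count of 0 was put at 3 counts. A gene counted at 2-fold or more with at least 10 CPM in the higher group, and within a library comparison only if both libraries went the same way. TMM factors came from edgeR 4.0.16, used for scaling only. The gene comparison was run on simulated Poisson counts, which hold no variation between cells, clones or libraries. That run checks the calculation alone and not the differences between the clones. UMIs shared between overlapping or near-identical genes cannot be assigned further. Named genes are the markers, the genes of the rule and the 6 muscle regulators Myod1, Myf5, Myog, Myf6, Pax7 and Pax3. Added to them are the 12 highest and 12 lowest ratios at 50 CPM or more per comparison, genes above both progenitors and muscle-rich cells, and up to 4 members per list, with more where a list goes both ways. The members and the 31 gene lists (537 of 540 genes in the files) were chosen with earlier results of these data known. Promoters are RefSeq windows of GRCm38.p6, another build than that of the counts, matched by symbol, and Mymk, Mymx and Cdkn1c have no entry. Scaling, the minimum level, averaging over cells, doublet scores, each limit of the rule and the choice of compared cells were varied.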

Additional observations from a re-analysis of the deposited data

Results flagged for a closer look

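In 14 genes early myocytes of the clones were at least 2-fold apart in opposite directions from another class, 7 against progenitors, 7 against muscle-rich cells and 0 against cycling Myog-positive cells. The 3 of them among the named or listed genes are given here. With 1 library per clone none of these differences was tested. Barx2, a homeobox factor, had a log2 ratio of early myocytes over progenitors of -3.36 in KO and 1.88 in WT. Hey1, a Notch target, had a log2 ratio of early myocytes over muscle-rich cells of 1.14 in KO and -1.81 in WT. Lgr5, a receptor of R-spondins, had a log2 ratio over muscle-rich cells of 2.28 in KO and -1.23 in WT. With muscle-rich cells held to the same Pax7, Mki67 and Top2a limits as early myocytes, the WT ratio was 0.45 for Hey1 and 1.76 for Lgr5.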

How the results depend on the processing

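No paired analysis was possible because each genotype has 1 library, and for the same reason no replicate could be left out. Of 108 counts and shares recomputed, 79 stayed within the limit set for them and 29 moved. A minimum of 50 CPM gave 284 genes higher and 172 lower in KO than in WT early myocytes, 207 and 285 against progenitors, 246 and 241 against muscle-rich cells, and 16 and 92 against cycling Myog-positive cells. A minimum of 1 CPM gave 2069 and 830, 619 and 1717, 793 and 1123, and 95 and 501 in the same order. Genes higher in early than in muscle-rich cells, 493 as reported, were 276 with TMM scaling, 766 without the 6% highest doublet scores, and 899 against muscle-rich cells under the Pax7, Mki67 and Top2a limits. Genes higher than in cycling cells, 37 as reported, were 20 with Myog at 5 or more per 10000, 20 with contractile genes under 0.5%, and 4 with no Mki67 or Top2a UMI. The share of early myocytes was 4.83% in KO and 2.91% in WT under 0.5% contractile UMIs, 3.49% and 2.79% with no Mki67 or Top2a UMI, 4.79% and 3.33% with no Pax7 UMI, and 3.63% in WT with the higher Myog limit, each below the reported share because fewer cells qualify. For the other changes the cause was not tested. The called ratios of genes given in the text were recomputed too, and 1349 values stayed within their limit and 477 moved. TMM scaling moved 90 and kept 84, and contractile genes under 0.5% moved 77 and kept 97. Progenitors under the Mki67 and Top2a limit moved 71, reversed 1 and kept 28. In all, 4 values changed sign. Dysf had a log2 KO/WT ratio of -0.78 when each cell counted equally. Kif11 in KO had 0.59 over progenitors with Mki67 and Top2a under 0.5 per 10000. Hey1 and Lgr5 in WT had 0.45 and 1.76 over muscle-rich cells under the Pax7, Mki67 and Top2a limits. Leaving out cells under 20000 UMIs, chosen after seeing the data, moved none of the 8 counts it was applied to past 1.5 times. Depth limits genes under 10 CPM, which were not called, and 1 library per genotype limits every KO/WT difference.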
